A study of Gallus gallus with 24 samples.

Results

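The week after hatch was compared between liver and whole brain of male Ross broilers, meat-type chickens of a fast-growing commercial line. The comparison used 12 of the 24 arrays of the study, which also sampled duodenum and breast muscle. It had 4 groups: liver and whole brain taken on the day of hatch (day 0), and liver and whole brain taken at 7 days of age (day 7). Each group held 3 pools of total RNA, 4 to 5 chicks in each, and every pool had a separate array of short chicken probes. The labels name no treatment, and whole brain was not divided into regions. The question was which genes changed by different amounts in the tissues between hatch and day 7 and which changed alike in both.

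A chick leaves the egg with yolk lipid as its main fuel and then changes to feed rich in carbohydrate. In birds the liver, not adipose tissue, is the main site of fatty acid synthesis, and it also makes cholesterol, plasma proteins and uric acid. The brain makes its own cholesterol, largely for membranes and myelin, and in chicks, which stand and peck within hours of hatching, much of its structure is laid down before hatch.

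Signals are on the scale of the deposited table, 1 linear value per probe set and array. Changes are differences of log2(signal + 28.4), day 7 minus day 0, so that changes of dim probe sets are understated. A probe set was tested where at least 1 of the 4 group means reached 104.6, the median of all signals. Calls were made in limma where the p adjusted by Benjamini-Hochberg was under 0.05, and a gene was represented by its probe set of highest mean signal. Each ± after a change is a standard error (n = 3 pools per group), and "the difference" is the liver change minus the brain change. No gene's signal was compared with that of another gene. The p-values measure the spread between pools, and 3 pools per group limit the precision.

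The arrays separated by tissue. Within groups the correlation between arrays was 0.966 to 0.977 in liver and 0.943 to 0.979 in brain, and liver arrays correlated with brain arrays at 0.454 to 0.531. The albumin gene ALB had a mean signal of 63218 in liver and 220.0 in brain at day 0, and SNAP25, a protein of synaptic vesicle fusion, had 2.19 in liver and 31357 in brain. Across ages, liver arrays correlated at 0.931 to 0.944 and brain arrays at 0.937 to 0.978, a range close to that within brain groups. The 5′ signal of control genes was low relative to their 3′ signal on a pair of brain arrays, with a log2 ratio of -1.68 for pool 1 of day 0 and -1.20 for pool 3 of day 7. The remaining 4 brain arrays lay between -0.98 and -0.79, and the liver arrays between -0.81 and -0.53. The median SD over pools was 0.24 in liver and 0.28 in brain on the log2 scale. Liver day 7 arrays also had higher hybridisation control signals (12682 to 13531) than liver day 0 (9484 to 10948) and brain arrays (8031 to 9517). In whole tissue, fewer cells of a type and less RNA per cell cannot be told apart.

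The liver changed at many more genes than the brain. Of 10787 genes tested, 840 rose in liver (7.79%) and 1202 fell (11.1%), while 33 rose in brain (0.306%) and 14 fell (0.13%). The unadjusted p was under 0.05 for 3497 genes in liver and 1149 in brain. The change itself differed between the tissues for 913 genes (8.46%). The liver change was the higher in 344 of them (3.19%) and the lower in 569 (5.27%). Among the 8284 genes with a mean signal at or above the median of all signals in both tissues, 799 differed. Leaving out both brain arrays of low 5′ signal raised the count of probe sets called for the difference from 1449 to 1618 and lowered that of brain calls from 73 to 50.

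**Figure D1:**
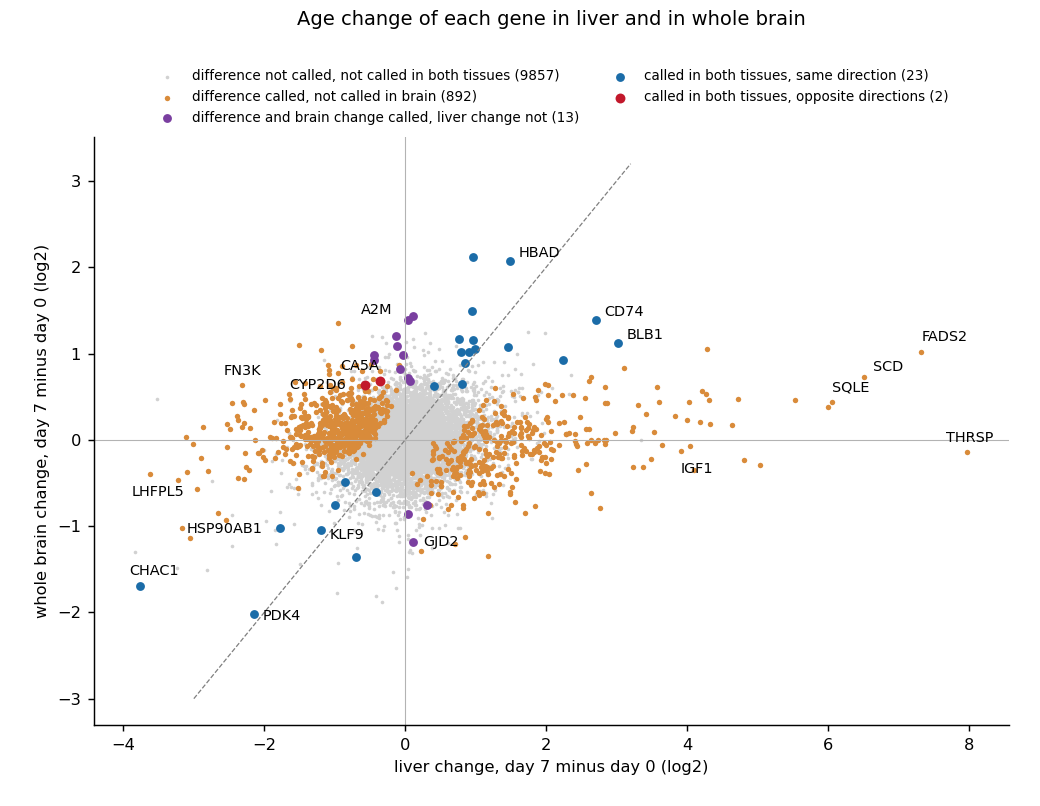
Change between day 0 and day 7 (log2) in liver (horizontal) and in whole brain (vertical) for each of 10787 genes, with the dashed line at equal change. Most genes whose change differed lie along the horizontal axis, and 23 genes called in both tissues in the same direction lie in the upper right and lower left.

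Most genes called in liver at 2-fold or more had a small brain change, with its 95% interval within 1 log2 unit of 0. Among the 757 genes called at 2-fold or more this held for 572, with median absolute changes of 1.36 in liver and 0.21 in brain. Of the 757, 551 reached the median of all signals in both tissues, and 450 of these were within the bound. The rest were dim in 1 tissue, where changes are understated. The bound held for 1813 of all 2042 genes called in liver. Their median absolute changes were 0.84 in liver and 0.16 in brain, so the bound exceeds most of these liver changes. The share of all tested genes within the bound was not counted. The brain change had the sign of the liver change for 58.0% of the genes called in liver, 63.9% of those that rose and 53.9% of those that fell. Among the 8660 genes with nothing called the signs were the same for 4657, so the share of 58.0% is near that of uncalled genes. Across all genes, which are not independent replicates and share arrays and scaling, the changes in liver and brain correlated weakly (Pearson 0.14, Spearman 0.11, n = 10787). By class, 829 genes were called for the difference and in liver only, 13 for the difference and in brain only, and 63 for the difference alone. A further 1188 genes were called in liver without a called difference, which leaves their brain change undecided rather than equal or absent.

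The distance between the tissues, as the difference of their mean log2 values, widened for 386 of the 913 genes (42.3%) and narrowed for 527. Over all genes tested it widened for 5171 (47.9%) and narrowed for 5616, a share close to the pooled one of the 913. That pooled share joined unlike parts. The distance widened for 215 of the 344 genes with the higher liver change (62.5%) and for 171 of the 569 with the lower (30.1%). These shares depend on the order at day 0: where brain was then higher and the liver change lower, the distance can only widen (112 of 112).

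Most genes of fatty acid synthesis rose in liver. None was called in brain, which is near the share of all genes there (0.306% rising and 0.13% falling). Of 23 tested genes of this list, 14 rose and 1 fell in liver, against 7.79% and 11.1% of all genes. The liver change was higher than the brain change in 12 and lower in none, against 3.19% and 5.27% of all genes. The median change was 1.76 in liver and -0.012 in brain, against -0.011 and 0.0026 over all genes. THRSP, a nuclear protein that promotes fatty acid synthesis, had the largest difference of all genes. Its signals were 252, 194 and 190.4 in liver at day 0 and 65301, 55870.1 and 59602 at day 7, and 11.2, 3.48 and 21.7 in brain at day 0 and 6.79, 9.71 and 6.52 at day 7. The liver pools of the ages lay far apart and those of brain overlapped, near the lower limit of the scale. The difference was 8.12 ± 0.28 (limma, adjusted p = 4.91e-10).

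The desaturases behaved alike but started from different brain levels. FADS2, which desaturates essential fatty acids on the way to long polyunsaturated ones, had liver signals of 5.06, 87.6 and 70.5 at day 0 and 15632, 10363 and 9701 at day 7. In brain its signals were 2904, 1960.3 and 1756 and then 3695, 3413 and 6792. The brain pools were above those of liver at day 0 and below them at day 7, and the difference was 6.30 ± 0.55 (adjusted p = 9.89e-06). The brain pools of the ages did not overlap either, but the brain change of 1.02 ± 0.39 was not called (adjusted p = 0.453). SCD, which makes monounsaturated fatty acids, went from 15.7, 5.16 and 29.7 to 4553, 3193 and 4369 in liver, and from 69.6, 64.2 and 91.0 to 174, 139 and 118 in brain. Here brain signals were low at both ages, and the difference was 5.78 ± 0.36 (adjusted p = 3.1e-07). FADS1, the partner desaturase of FADS2, had a difference of 5.62 ± 0.53, and the elongase ELOVL2, which extends polyunsaturated fatty acids, one of 5.03 ± 0.39.

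The enzymes that supply the fatty acid chain followed. ACACA, which makes malonyl-CoA, rose by 3.37 ± 0.22 in liver (mean signal 412 ± 82.7 to 4503 ± 662, SD) against -0.32 ± 0.22 in brain. FASN, the fatty acid synthase, rose from 7922 ± 2401 to 47269 ± 5399 in liver, from a level that was then close to the 7925 ± 1559 of brain, and brain was at 8603 ± 1022 at day 7. ME1, a source of NADPH, had a difference of 3.12 ± 0.21 and the elongase ELOVL6 one of 3.08 ± 0.15. ACLY, which makes cytosolic acetyl-CoA, had one of 1.55 ± 0.23. Not every member took part. PGD, a source of NADPH in the pentose phosphate pathway, had a difference of -0.24 ± 0.16 (adjusted p = 0.476), and DGAT2, of triglyceride synthesis, one of 0.18 ± 0.36 (adjusted p = 0.87). Without both brain arrays of low 5′ signal, 13 members were called higher.

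Cholesterol synthesis rose in liver from signals that were mostly below those of brain. Of 16 tested members, 15 rose in liver, against 7.79% of all genes. None was called in brain, near the share of all genes there (0.306% rising and 0.13% falling). The liver change was higher in 11 and lower in none, against 3.19% and 5.27% of all genes. The median change was 2.89 in liver and 0.24 in brain. For 13 of the 16, brain had the higher signal at day 0, and for 2 at day 7. SQLE, which makes squalene epoxide, had liver signals of 96.0, 132 and 79.3 at day 0 and 6798, 9587 and 9652 at day 7. In brain they were 4136, 4015 and 3548 and 4434, 4904 and 6803. The liver was far below the brain at hatch, and at day 7 its lowest pool lay just under the highest brain pool. The difference was 5.62 ± 0.27 (limma, adjusted p = 1.99e-08). LSS, the lanosterol synthase, went from 275, 304 and 224 to 7966, 6534 and 7529 in liver, and from 2621, 1720.0 and 1904 to 2276, 2128 and 2531 in brain. Its liver pools passed those of brain, and the difference was 4.47 ± 0.23 (adjusted p = 3.58e-08). NSDHL, of sterol demethylation, had a difference of 3.84 ± 0.18 and FDPS, which makes farnesyl diphosphate, one of 3.70 ± 0.20. HMGCS1, at the entry of the pathway, was an exception. It rose in liver by 0.34 ± 0.11 (adjusted p = 0.0437) and had a brain change of 0.50 ± 0.11 (adjusted p = 0.0734), with a difference of -0.17 ± 0.15 (adjusted p = 0.627).

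**Figure D2:**
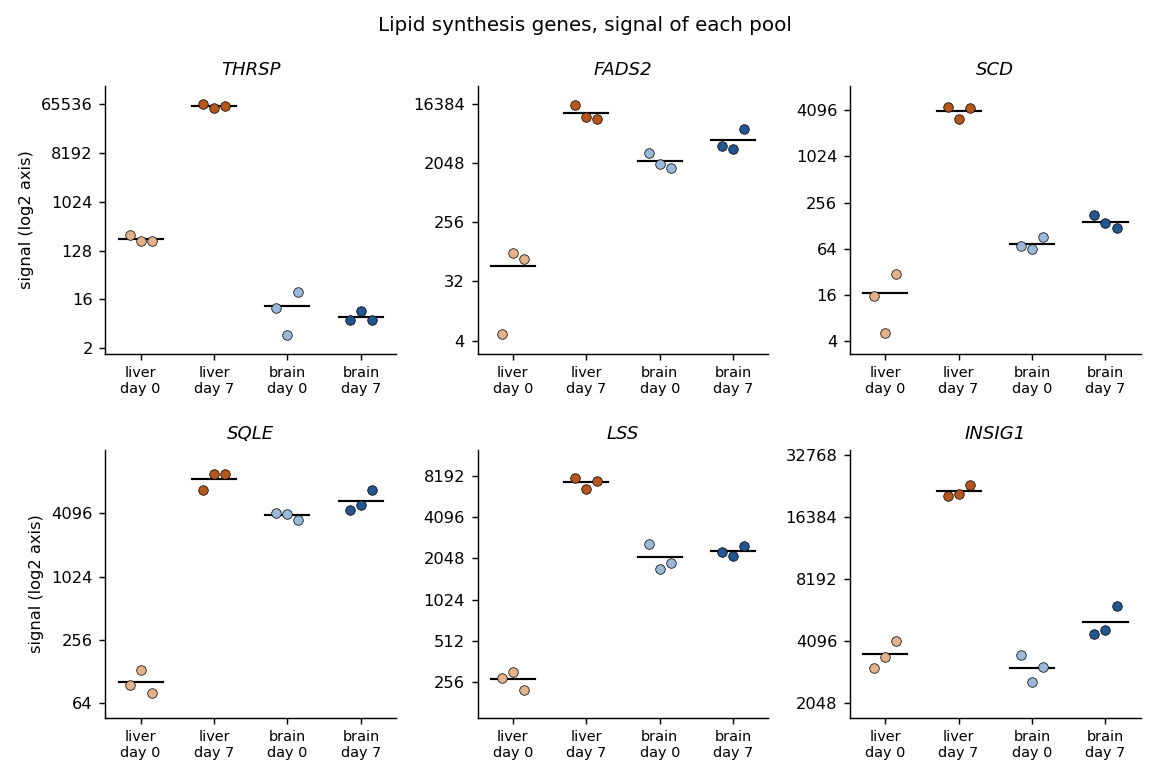
Signal of each pool (points, log2 axis) and group mean (line) for 6 genes of lipid synthesis and its control. Liver pools of day 7 lie above those of day 0 in every panel. For FADS2, SCD, SQLE and LSS the liver mean is below the brain mean at day 0 and above it at day 7.

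Regulators of sterol balance split. The liver change was higher in 3 of 18 tested members and lower in 3, against 3.19% and 5.27% of all genes. SREBF2, the transcription factor of cholesterol synthesis, INSIG1, which retains it in the endoplasmic reticulum, and STARD4, a sterol carrier, had the higher liver change. INSIG1 signals were 3041, 3433 and 4111 and then 20852, 21345 and 23386 in liver, and 3485, 2583 and 3049 and then 4445, 4636 and 6075 in brain. Pools of the ages did not overlap in either tissue, the brain change of 0.72 ± 0.14 had an adjusted p of 0.0565, and the difference was 1.91 ± 0.20 (adjusted p = 5.99e-05). The lower liver change was found for ABCG5, LCAT and NPC2. ABCG5, a subunit of the transporter that secretes sterols into bile, had a liver change of -1.14 and a difference of -1.60 ± 0.33, and LCAT, which esterifies cholesterol in plasma, had a difference of -1.36 ± 0.22. ABCG5 was under the filter in brain and passed it through liver.

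A part of the genes of fat use fell in liver. Of 23 tested genes of fatty acid oxidation and ketone formation, 10 fell and 1 rose in liver, against 11.1% and 7.79% of all genes. The liver change was lower than that of brain in 6 and higher in 1, against 5.27% and 3.19% of all genes. PPARGC1A, a coactivator of mitochondrial and fasting genes, had liver signals of 1897, 2148 and 2532 at day 0 and 484, 662 and 562 at day 7. In brain they were 1489, 1074 and 1304 and 1385, 1209 and 1288, which overlapped. The difference was -1.91 ± 0.23 (adjusted p = 0.000147), and that of its second tested probe set was -1.91 with an adjusted p of 0.0712. HADHB, a subunit of the mitochondrial trifunctional protein, had a difference of -0.91 ± 0.18. The 1 member in the other direction was PPARA, the receptor that drives oxidation genes in liver, with 0.90 ± 0.25 (adjusted p = 0.0488), a call that was lost without both brain arrays of low 5′ signal. LIPC, the hepatic lipase, had liver signals of 14482 to 15590.3 at day 0 and 1257 to 2373 at day 7 and was at 4.16 to 42.6 over the 6 brain pools, with a difference of -2.73 ± 0.37. With 1 in place of 28.4 added before log2, the difference of LIPC was not called (adjusted p = 0.151).

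IGF1 and its binding proteins had called differences of opposite sign. IGF1, the insulin-like growth factor made mainly in liver after hatch, had signals of 3.18, 2.85 and 3.82 at day 0 and 453, 605 and 329 at day 7, while all 6 brain pools lay between 1.06 and 8.37. IGFBP1, a binding protein that is high in fasting, went from 12284, 14657 and 17102 to 1652, 2065 and 2121 in liver, and its brain signals overlapped between ages. IGFBP2 went from 7083, 9328 and 10506 to 1084, 2371 and 3068 in liver, and in brain from 3386, 3148 and 3906 to 4579.9, 3119 and 2922. IGF1 rose and both binding proteins fell in liver. IGF1 passed the filter through liver at day 7 alone, with no room for a fall in brain, and its difference ran from 2.40 to 7.55 over the alternatives. IGFBP1 was under the filter in brain and passed it through liver, so a fall like that of liver had little room in brain. The differences were 4.04 ± 0.42 for IGF1, -2.69 ± 0.38 for IGFBP1 and -2.14 ± 0.41 for IGFBP2 (adjusted p = 4.82e-05, 0.000649 and 0.00624). In the list of 27 tested thyroid hormone, growth hormone and IGF genes, 4 rose and 6 fell in liver (7.79% and 11.1% of all genes). These 3 were the ones called for the difference (11.1%, near the 8.46% of all genes).

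Single genes of other pathways had differences of similar size. BHLHE41, a repressor linked to the clock, went from 253, 293 and 219 to 7503, 6642 and 8147 in liver and from 2143, 1594 and 2129 to 2801, 2291 and 3108 in brain, a difference of 4.24 ± 0.22. Its relative BHLHE40 had a difference of -1.95 ± 0.31, while its other probe sets gave -1.39 (adjusted p = 0.0864) and -0.48 (adjusted p = 0.653). Of 16 tested clock genes, 3 rose and 2 fell in liver, against 7.79% and 11.1% of all genes. The difference was called for BHLHE41 and BHLHE40 (12.5%, against 8.46% of all genes). CDO1, the first enzyme of cysteine breakdown and of taurine synthesis, went from 213, 584 and 519 to 15349, 13019.7 and 14408 in liver, and in brain from 956, 687 and 716 to 586, 656 and 659, with a difference of 5.33 ± 0.37. XDH, which makes uric acid, the nitrogen waste of birds, had liver signals of 705, 2426 and 2624 and then 9941, 12069.8 and 12428. Its liver change was 2.77 and its brain change of -0.79 was not called, a difference of 3.55 ± 0.54. XDH was under the filter in brain and passed it through liver, and its difference ran from 2.95 to 4.94 over the alternatives. The glutathione transferases GSTA4 and GSTA2 had differences of 3.73 ± 0.43 and 2.89 ± 0.20, while CYP1A1, of drug oxidation, had -1.95 ± 0.39. CDKN2B, an inhibitor of the cell cycle, had a difference of 5.07 ± 0.64, from day 0 liver signals of 32.8, 5.05 and 6.37 that lie near the lower limit of the scale. PIGR, which carries immunoglobulin A across epithelia, had 4.45 ± 0.52.

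Many genes of immune cells rose in liver, and a few also in brain. In antigen presentation, 10 of 11 tested members rose in liver and 2 in brain, against 7.79% and 0.306% of all genes. The liver change was higher in 6 and lower in none, against 3.19% and 5.27% of all genes. It was higher in 5 without both brain arrays of low 5′ signal, and in 4 without liver day 0 pool 1 or pool 2. The median change was 1.54 in liver and 0.59 in brain. TAP2, which loads peptides for MHC class I, went from 277, 268 and 255 to 958, 1112 and 944 in liver and was at 96.5, 96.9 and 161 in brain at day 0, with a mean of 99.7 ± 2.52 (SD) at day 7. The brain pools of the ages overlapped, and the difference was 1.97 ± 0.30 (adjusted p = 0.00105). Of 13 tested T cell and cytotoxic genes, 9 rose in liver, against 7.79% of all genes. None was called in brain, near the share of all genes there (0.306% rising and 0.13% falling). In 4 of the 13 the liver change was higher (30.8%, against 3.19% of all genes). Only 4 of the 13 reached the median of all signals in both tissues, and members dim in brain had no room for a fall there. CD3D, a chain of the T cell receptor complex, went from 153, 134 and 128 to 685, 880.4 and 1155 in liver, and the 6 brain pools lay between 5.96 and 38.4. GNLY, a protein of cytotoxic granules, had a difference of 1.96 ± 0.24. JCHAIN, which joins immunoglobulin chains, had 2.44 ± 0.53. It was the 1 gene called for the difference among 9 of B and plasma cells (11.1%, near the 8.46% of all genes). Of these 9, 2 rose in liver and only 1 reached the median of all signals in both tissues.

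Of 25 tested macrophage and microglia genes, 15 rose and 1 fell in liver, against 7.79% and 11.1% of all genes. None was called in brain, near the share of all genes there (0.306% rising and 0.13% falling). Of the 25, 16 reached the median of all signals in both tissues. The liver change was higher in 8 and lower in none, against 3.19% and 5.27% of all genes. These counts were the same without both brain arrays of low 5′ signal, but without liver day 0 pool 2 the liver change was higher in 3. TIMD4, a receptor of resident macrophages, went from 1847, 1966 and 2052 to 5254, 5736 and 5889 in liver and was at 63.4, 87.2 and 46.8 and then 66.6, 75.1 and 71.0 in brain. The difference was 1.41 ± 0.24 (adjusted p = 0.00271), and those of the complement gene C1QA and the scavenger receptor MARCO were 1.11 ± 0.22 and 1.46 ± 0.27. The summed signal of the 25 genes was 39346 to 42914 in liver at day 0 and 60097 to 61867 at day 7, and 4199 to 4797 and then 4788 to 5761 in brain. That of the 13 T cell genes was 1777 to 2225 and then 5917 to 6178 in liver, and 1237 to 1574 and then 1298 to 1508 in brain. The part of these cell markers in the other immune changes was not tested. Of 27 interferon response genes, 14 rose in liver and 2 in brain, against 7.79% and 0.306% of all genes. The 2 were IRF1 and DTX3L, whose brain calls were lost in 14 and 22 of 27 alternatives. Both were lost without both brain arrays of low 5′ signal. The second probe set of DTX3L had a brain change of 0.20 (limma, adjusted p = 0.962). Among the 27 genes the difference was called for IFI27L2 alone (3.70%, below the 8.46% of all genes), at 3.97 ± 0.35.

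Many cell division genes fell in liver, with a median brain change near 0 for replication genes. Of 43 tested replication genes 27 fell in liver, against 11.1% of all genes. The liver change was lower than that of brain in 22 and higher in none, against 5.27% and 3.19% of all genes. It was lower in 23 without both brain arrays of low 5′ signal. The median was -0.97 in liver and 0.0086 in brain. MCM2, a subunit of the replicative helicase, had liver signals of 1989, 2244 and 1906 at day 0 and 555, 743 and 677 at day 7, and brain signals of 308, 204 and 325 and 261, 419 and 409.5. The liver pools lay apart and the brain pools overlapped, and the difference was -1.95 ± 0.30 (adjusted p = 0.0012). CDT1, which licenses replication origins, had -1.91 ± 0.38, with -1.34 (adjusted p = 0.101) for its second probe set, and PCNA, the sliding clamp, -1.13 ± 0.13. Of 53 mitosis genes, 22 fell in liver, against 11.1% of all genes. The lower liver change was found in 16 (13 without those arrays), against 5.27% of all genes, and the higher in none. Over all alternatives the count with the lower liver change ran from 5, without liver day 0 pool 2, to 18. That of the replication genes ran between 18 and 25. TOP2A, which untangles chromosomes, had a difference of -1.44 ± 0.24 and the kinetochore gene NUF2 one of -1.67 ± 0.36.

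The brain changes of the mitosis genes were mostly positive and, but for 1, not called. The brain change was positive in 42 of 53 tested members, against 4304 of the 8660 genes with nothing called. The median was 0.24, against 0.0026 over all genes. CDKN3, a phosphatase of cyclin-dependent kinases, was the 1 member called in brain, a call that was lost in 17 of 26 alternatives. Its signals were 17.6, 14.0 and 10.1 in brain at day 0 and 80.3, 65.0 and 61.1 at day 7, all below the median of all signals, and 399, 448 and 397 and then 375, 400.4 and 357 in liver. A second probe set of CDKN3 had a brain change of 0.19 that was not called (adjusted p = 0.956).

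Connective tissue, chaperone and mitochondrial genes gave smaller shifts. Of 31 stellate cell and fibroblast genes, 6 had the lower liver change (19.4%, against 5.27% of all genes). They were led by FMOD, a collagen-binding proteoglycan (-1.72 ± 0.37), and POSTN, a matrix protein (-1.46 ± 0.28). The second probe set of POSTN gave -0.54 (adjusted p = 0.579). Of 36 chaperones, 7 had the lower liver change (19.4%, against 5.27% of all genes), or 5 without both brain arrays of low 5′ signal. HSPD1, the mitochondrial chaperonin, went from 17564, 18568 and 19784 to 4853, 6257 and 6189.6 in liver and from 7475, 4357 and 6553 to 5277, 4949.5 and 6614 in brain. The brain pools overlapped, and the difference was -1.59 ± 0.25, but the second probe set of HSPD1 gave -0.40 (adjusted p = 0.302). BAG3, a co-chaperone, had a liver change of -1.09 and a brain change of 0.81 ± 0.27 that was not called (adjusted p = 0.348). Of 60 genes of oxidative phosphorylation, 21 fell in liver and 1, CYCS, in brain, with medians of -0.32 and -0.24. Over all genes 11.1% fell in liver and 0.13% in brain. The change was negative for 56 of the 60 in brain, against 4356 of the 8660 genes with nothing called. The difference was called for 2 of the 60 (3.33%, below the 8.46% of all genes). These were NDUFS4 and NDUFB10, at -1.62 ± 0.28 and -0.47 ± 0.12, and the call of NDUFB10 was lost in 13 of 27 alternatives. The second probe set of CYCS, not counted here, also had a called difference (-1.13, adjusted p = 0.000611). Without both brain arrays of low 5′ signal, 4 members had the higher and 5 the lower liver change.

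The most negative called differences belonged to genes of varied roles. LHFPL5, a membrane protein of the hair cell transduction complex, had the most negative difference among the genes called. Its signals were 1173, 1448 and 781 in liver at day 0 and 61.7, 85.5 and 45.6 at day 7, and 1062, 905 and 711 in brain at day 0 and 674, 645 and 671 at day 7. Liver and brain overlapped at hatch, liver was lower by day 7, and the difference was -3.23 ± 0.33 (adjusted p = 3.83e-05). NPTX2, a pentraxin of synapses, went from 813, 567 and 747 to 157, 175 and 188 in liver, and its brain signals of 13148 to 15680.1 at day 0 and 15191 to 17576 at day 7 overlapped. Its difference was -2.06 ± 0.19, and its other probe sets gave -2.22 (adjusted p = 0.00109) and -0.31 (adjusted p = 0.796). GNG4, a G protein subunit, had a difference of -2.71 ± 0.30 and NTRK2, the receptor of a neurotrophin, one of -2.62 ± 0.38, although the second probe set of NTRK2 gave 0.16 (adjusted p = 0.918). The list of 44 synapse and neuron genes had 3 members called for the difference, NTRK2, NPTX2 and the kinase gene CAMK2A, each with the lower liver change (6.82%, against 8.46% of all genes). Only 6 of the 44 reached the median of all signals in both tissues, and CAMK2A was not among them. Members dim in liver had no room for a fall there. The call of CAMK2A was lost in 8 of 27 alternatives, and its other probe sets gave -0.62 and -0.13 (adjusted p = 0.728 and 0.95). The summed signal of the list was 2585 to 3060 and then 1779 to 2094 in liver, against 235849 to 256756 and then 245559 to 253839 in brain. ACBD7, an acyl-CoA binding protein, had brain signals of 20594 to 22490.2 and then 21602 to 25082 and fell in liver, with signals of 4832 to 5672 at day 0 and 428 to 1149 at day 7. FN3K, which repairs glycated proteins, had a difference of -2.95 ± 0.30.

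**Figure D3:**
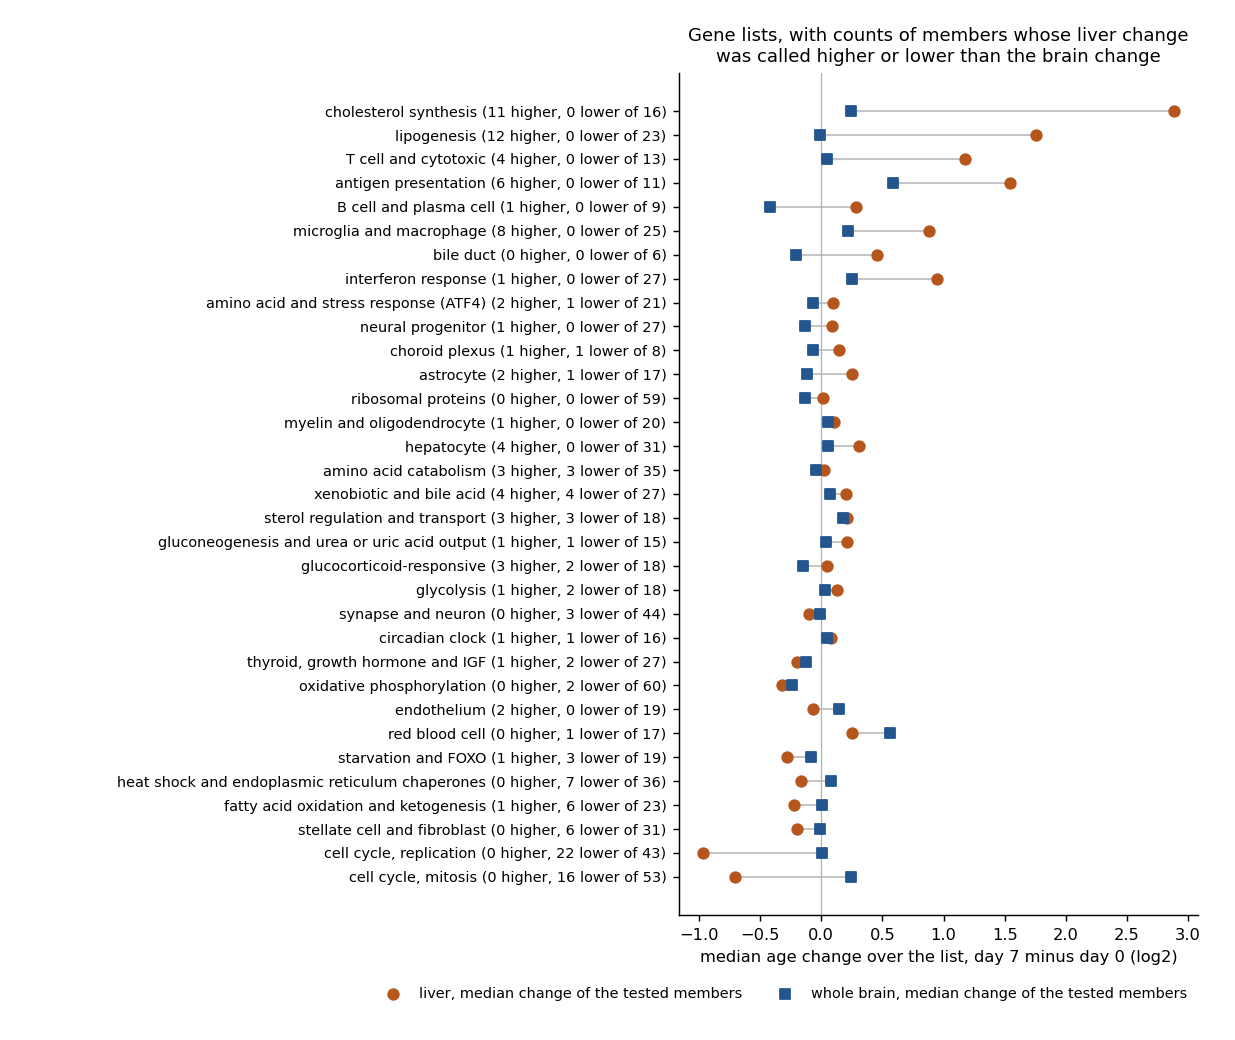
Median change over the tested members of each of 33 gene lists (horizontal, log2) in liver (circles) and whole brain (squares), with the number of members whose liver change was called higher or lower. Liver and brain medians lie furthest apart for cholesterol synthesis, at 2.89 and 0.24, and close together for most lists.

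Some genes changed alike. In all, 23 genes were called in both tissues in the same direction (0.213% of those tested), 15 rising and 8 falling. Of the 23, 22 reached the median of all signals in both tissues. The difference was not called for 17 of them, and it was called for 6, of which 5 changed more in liver. Without both brain arrays of low 5′ signal 14 genes were shared, 13 of them among the 23, and without brain day 0 pool 3 the count was 12.

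Among the 8 falling genes PDK4, the kinase that shuts off pyruvate dehydrogenase in fasting, had the largest brain change. Its signals were 11001, 12467 and 12304 in liver at day 0 and 2778, 2614 and 2607 at day 7, and 1139.8, 1215 and 1216 in brain at day 0 and 205, 272 and 355 at day 7. Pools of the ages lay apart in both tissues, and the tissues kept their order. The changes were -2.15 ± 0.15 in liver and -2.02 ± 0.15 in brain (limma, adjusted p = 2.75e-07 and 6.93e-06), and the 95% interval of the difference ran from -0.58 to 0.33. KLF9, a transcription factor induced by glucocorticoids and thyroid hormone, behaved in the same way. Its signals went from 4103, 5393 and 4199.9 to 2047, 1758 and 2082 in liver and from 4819, 5980.1 and 5083 to 2263, 2888 and 2485 in brain. The changes were -1.20 ± 0.14 and -1.05 ± 0.14 (adjusted p = 3.73e-05 and 0.00308), with an interval of the difference from -0.56 to 0.26. When brain was fitted without liver the KLF9 fall was not called (adjusted p = 0.0646).

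Both are members of the list of 18 glucocorticoid-responsive genes. In brain the change was negative in 15 of the 18, with a median of -0.15, and 3 fell. It was negative in 4356 of the 8660 genes with nothing called, and 0.13% of all genes fell in brain. In liver 5 rose and 6 fell, against 7.79% and 11.1% of all genes. FKBP5, a co-chaperone of the glucocorticoid receptor, fell in liver from 17805, 14190.5 and 13254 to 3469.5, 1716 and 2755 and was at 1987, 2117 and 2339 and then 1279, 1046 and 1024 in brain. The brain pools of FKBP5 did not overlap, and the brain change was -0.93 ± 0.20 (adjusted p = 0.0872), with a difference of -1.61 ± 0.29. A probe set of FKBP5 with a lower mean signal was called falling in brain (-0.98, adjusted p = 0.0108) and in liver (-2.51), and another gave -0.83 in brain (adjusted p = 0.302). DUSP1, a phosphatase induced by glucocorticoids in mammals, had changes of -0.11 ± 0.13 and -0.11 ± 0.13, neither called.

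CHAC1, which breaks down glutathione and is induced by amino acid shortage, fell in both tissues and more in liver. It went from 5411, 7366 and 5252 to 467, 364 and 407 in liver, and from 1323, 609 and 616 to 213, 201 and 267 in brain. The changes were -3.76 ± 0.25 and -1.69 ± 0.25, and the difference was -2.07 ± 0.36 (adjusted p = 0.00292). The brain call of CHAC1 was lost when brain was fitted without liver (adjusted p = 0.21). ASNS, another gene of the amino acid response, had changes of -0.45 ± 0.37 and -0.25 ± 0.37, neither called. HSP90AB1, a constitutive chaperone, fell from 1952, 2183 and 1947 to 643, 510.0 and 574 in liver and from 5446, 5426 and 4959 to 2271, 2746 and 2785 in brain, with a difference of -0.75 ± 0.17 whose call was lost in 6 of 27 alternatives. The mitochondrial carrier of phosphate SLC25A3 and cytochrome c, CYCS, also fell in both, with brain changes of -0.60 and -0.49. These brain calls were lost in 17 and 9 of 27 alternatives. The second probe set of CYCS fell in liver (-1.54) and was not called in brain (-0.41, adjusted p = 0.204). Its difference of -1.13 was called (adjusted p = 0.000611). ATAD1, whose brain call was lost in 10, and C1orf210 complete the 8. C1orf210 had brain means of 68.0 at day 0 and 9.26 at day 7, under the filter, and passed it through liver. Its brain call was lost with the median of all signals added before log2, and its liver call in 7 of 26 alternatives.

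**Figure D4:**
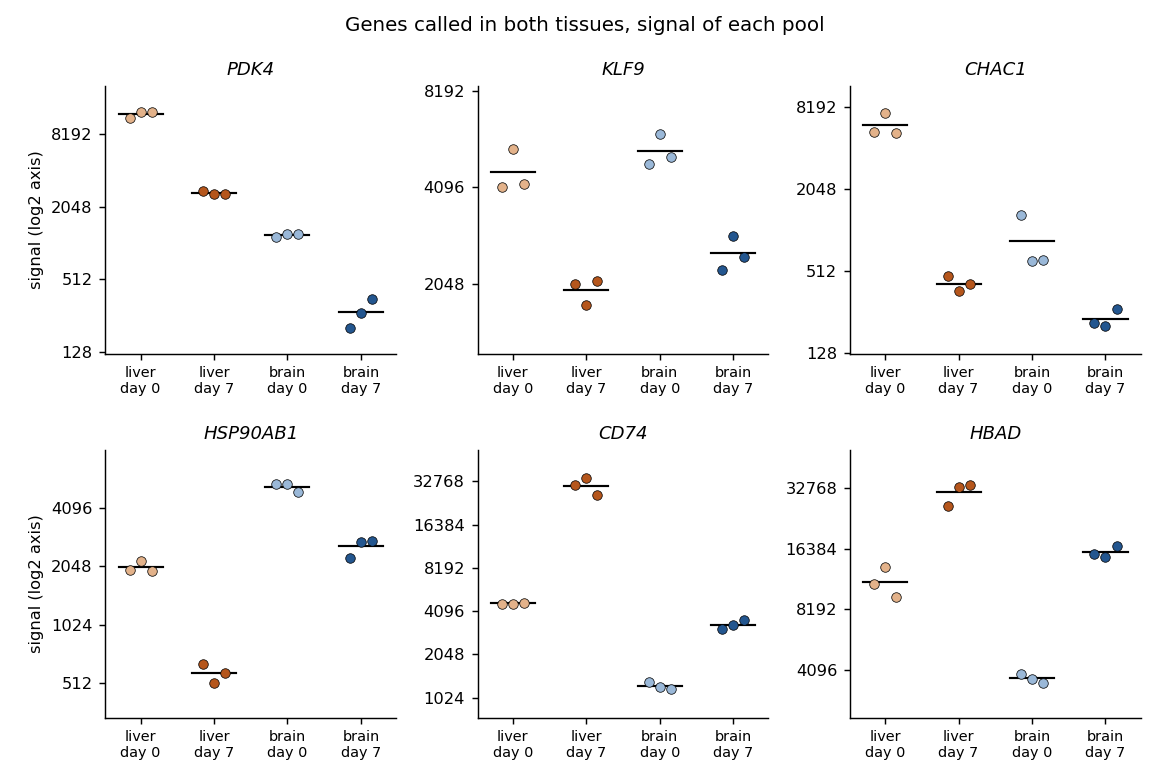
Signal of each pool (points, log2 axis) and group mean (line) for 6 of the 23 genes called in both tissues. PDK4, KLF9, CHAC1 and HSP90AB1 fell and CD74 and HBAD rose in both, with no overlap between the ages in either tissue.

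Haemoglobin and other red cell genes made up part of the shared rise. HBAD, an alpha globin of adult birds, had signals of 10982, 13233 and 9446 in liver at day 0 and 26773, 33367 and 34005 at day 7. In brain they were 3938, 3696 and 3552 and 15495, 14951 and 16951. The pools of the ages did not overlap in either tissue. The changes were 1.49 ± 0.12 in liver and 2.07 ± 0.12 in brain (adjusted p = 1.66e-06 and 5.92e-07), and the interval of the difference ran from -0.96 to -0.21 with an adjusted p of 0.0637. HBA1, the other alpha globin, had changes of 0.94 ± 0.09 and 1.49 ± 0.09, and its difference of -0.55 ± 0.13 was called (adjusted p = 0.0202). It was not called in 6 of 27 alternatives. Globin genes are alike in sequence, so probe sets may share transcripts. SLC4A1, the anion exchanger of the red cell membrane, rose by 0.99 ± 0.20 and 1.05 ± 0.20, the brain call being lost in 15 of 27 alternatives, and SLC25A37, the iron importer of mitochondria, by 0.76 ± 0.18 and 1.17 ± 0.18. Of 17 tested red cell genes, 4 were called in both tissues in the same direction, against 0.213% of all genes. These were HBAD, HBA1, SLC4A1 and HBBR, another globin, while SLC25A37 is not in the list. HBBR had brain signals of 15.6, 35.2 and 10.1 at day 0 and 232, 133 and 179 at day 7. Its liver call (limma, adjusted p = 0.0456) was lost in 12 of 27 alternatives. The count of 4 was 3 without both brain arrays of low 5′ signal and 2 at the lowest. The list's summed signal was 53792 to 62068 and then 103057 to 106445 in liver and 30777 to 37014 and then 68110 to 73567 in brain. The part of blood in the other changes was not tested.

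The class II genes CD74 and BLB1 rose in both tissues and more in liver. CD74, the class II invariant chain, went from 4622, 4621 and 4656 to 31052, 34290.3 and 26178 in liver, and from 1308, 1224 and 1176 to 3059, 3275 and 3549.6 in brain. All pools of day 7 lay above those of day 0, the changes were 2.70 ± 0.11 and 1.39 ± 0.11, and the difference was 1.31 ± 0.15 (adjusted p = 0.000116). BLB1, a class II beta chain from a family of like genes, had changes of 3.02 ± 0.15 and 1.13 ± 0.15 and a difference of 1.89 ± 0.22. Its other probe sets rose in liver and gave brain changes of 1.11, 1.02, 0.62 and 0.62 (limma, adjusted p = 0.0162, 0.148, 0.814 and 0.707). The third of these was not called for the difference (0.98, adjusted p = 0.43). The brain call of BLB1 was lost in 2 of 27 alternatives. IRF1, an interferon-induced transcription factor, rose by 1.45 ± 0.20 and 1.07 ± 0.20, with an interval of the difference from -0.22 to 0.98. The brain call of IRF1 was lost in 14 of 27 alternatives and that of CD74 in none. The summed signal of the 11 antigen presentation genes was 3821 to 5278 and then 8149 to 9339 in brain. Among the other rising genes were lipid enzymes. ACSBG2, an acyl-CoA synthetase, rose from 445, 499.9 and 501 to 2619.8, 2085 and 2486 in liver and from 935, 900.3 and 791 to 1738, 1424 and 1919 in brain. CYP46A1, which turns over cholesterol in the mammalian brain, had changes of 0.79 ± 0.14 and 1.02 ± 0.14, and LPCAT3, of phospholipid remodelling, 0.41 ± 0.10 and 0.63 ± 0.10.

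The same 23 genes were read in the other tissues with a fit of all 24 arrays, in which 29.2% of 11544 genes were called in duodenum and 32.8% in muscle. In duodenum 14 of the 23 were called in the shared direction and none in the opposite one. In muscle 7 were called in the shared direction and 5 in the opposite one. HBAD, CD74 and LONRF1 were called in the same direction in all 4 tissues, although the brain call of LONRF1 was lost in 17 of 27 alternatives. CHAC1 and HSP90AB1 had muscle changes of 1.14 and 1.07 where they fell in the other 3 tissues, and PDK4 had a muscle change of -4.43 and a duodenum change of 0.092, the latter not called (adjusted p = 0.828).

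Only CYP2D6 and CA5A were called in opposite directions. CYP2D6, a drug-oxidising cytochrome, had signals of 26776, 25428 and 26272 in liver at day 0 and 15576, 20095 and 17348 at day 7, and 1458, 1720.0 and 1679 in brain at day 0 and 2282, 2479 and 2815 at day 7. Pools of the ages did not overlap in either tissue. The changes were -0.57 ± 0.11 in liver and 0.63 ± 0.11 in brain (limma, adjusted p = 0.00303 and 0.0279), and the difference was -1.20 ± 0.16. CA5A, a mitochondrial carbonic anhydrase, went from 8010.4, 8154 and 7119 to 5338, 6019.9 and 6781 in liver, and from 1457, 1399 and 1475 to 2244, 2298 and 2484 in brain, with a difference of -1.05 ± 0.15. The brain call was lost in 16 of 27 alternatives for CYP2D6 and in 8 of 27 for CA5A. The second probe set of each was not called for the difference (CYP2D6 -0.52, adjusted p = 0.352, and CA5A -0.16, adjusted p = 0.928).

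Other genes changed more in brain. AGT, angiotensinogen, which astrocytes make in mammals, had brain signals of 4841, 5001 and 5074 at day 0 and 9916, 9706 and 10048 at day 7, and liver signals of 31312, 29733 and 32244 and 31334, 34754 and 26032. The brain pools of the ages lay apart with a narrow spread, while the liver pools overlapped. The brain change was 0.99 ± 0.10 (adjusted p = 0.00015) and the difference -1.02 ± 0.14 (adjusted p = 0.000442). A second probe set of AGT gave a difference of -1.18 that was not called (adjusted p = 0.132). A2M, a plasma protease inhibitor, went from 140.0, 122 and 172 to 427, 387 and 459.6 in brain, against 50078, 51839.6 and 51742 and then 58196, 49574 and 50008 in liver, with a difference of -1.36 ± 0.17. TUBB6, a beta tubulin, went from 410.4, 498 and 425 to 905, 847 and 1195 in brain and stayed between 893 and 1243 in liver. Its difference was -1.21 ± 0.23. GJD2, the gap junction protein of neurons, fell in brain from 1968, 1457 and 2064 to 873, 754 and 715 and was at 32.5 to 56.0 over the liver pools. Its difference of 1.30 ± 0.30 was not called without both brain arrays of low 5′ signal, without brain day 0 pool 3 or in the fit of all 24 arrays, and its second probe set gave 1.03 (adjusted p = 0.183). CEBPB, a factor of stress and metabolism, had a brain change of -0.76, a call that was lost in 22 of 27 alternatives, and had a difference of 1.07 ± 0.20.

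**Figure D5:**
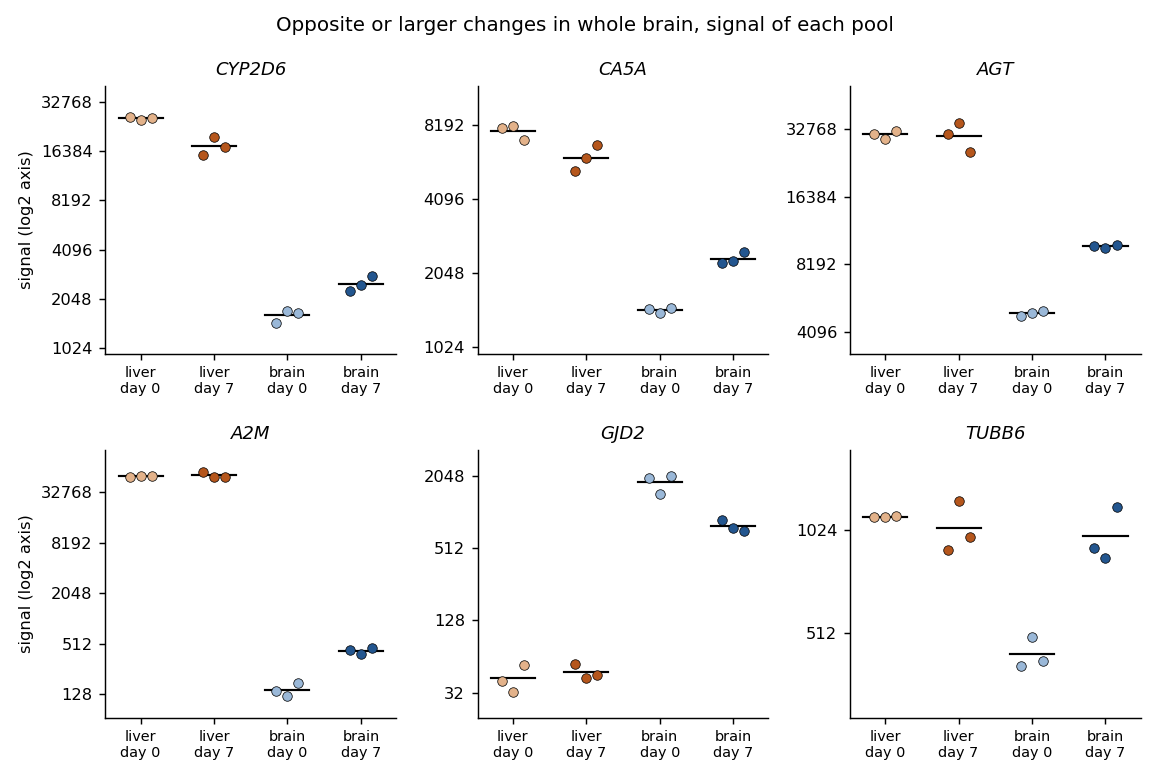
Signal of each pool (points, log2 axis) and group mean (line) for the 2 genes called in opposite directions (CYP2D6, CA5A) and 4 genes that changed more in brain. Brain pools of the ages do not overlap in any panel, while liver pools of AGT, A2M, GJD2 and TUBB6 overlap.

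Most of the genes that rose in brain had the higher signal in liver. HAL and CDKN3 stayed under the filter in brain and passed it through liver, and were set aside here after their values were seen. At day 0, liver had the higher signal for 28 of the other 31 (90.3%), against 46.8% of the 9627 genes measurable in brain. It was at least 10 times the brain signal for 7 of the 31 (22.6%), against 2.22%. Among the 31 tested hepatocyte genes, 3 plasma protein genes, TF, APOH and KNG1, rose in brain, where 0.306% of all genes rose. The number of members called rising in brain fell to 0 under at least 1 alternative, and KNG1 was near the threshold (limma, adjusted p = 0.0455). TF, the iron carrier transferrin, was at 2728 to 4535 in brain at day 0 and at 5619.7 to 10144 at day 7, and APOH, a phospholipid-binding plasma protein, at 3501 to 5182 and then 6522 to 11133. ALB, the main plasma protein gene, was at 165, 182 and 313 and then 172, 128 and 394 in brain, and the fibrinogen gene FGB at 38.4, 44.7 and 53.3 and then 49.7, 56.2 and 62.1. Neither was called, and the summed signal of the list was 48144 to 64060 in brain at day 0 and 47725 to 69205 at day 7, ranges that overlap. In liver the sum was 1148240 to 1248440 and then 1398870 to 1672230. HPX, which binds haem, VTN, APOA4 and PIT54 had the higher liver change (12.9% of the list, against 3.19% of all genes). The call of APOA4 was lost in 14 and that of PIT54 in 12 of 27 alternatives, and the count of members called higher ran from 1 to 8. Leaving out both brain arrays of low 5′ signal gave 7 higher and 4 lower in place of 4 and 0.

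Brain cell markers gave few calls in brain, where 0.306% of all genes rose and 0.13% fell. Of 20 myelin genes 1 fell there and of 17 astrocyte genes 1, AGT, rose. No neural progenitor or choroid plexus gene was called in brain. The difference was called for 1 of 27 progenitor genes (3.70%) and 1 of 20 myelin genes (5%), against 8.46% of all genes. It was called for 3 of 17 astrocyte genes (17.6%) and 2 of 8 choroid plexus genes (25%). Among 27 neural progenitor genes, NEUROD1, a factor of newborn neurons, had brain signals of 3161, 3063 and 3291 and then 1723, 1941 and 2361, a brain change of -0.66 ± 0.27 that was not called and a difference of 1.42 ± 0.38 (adjusted p = 0.0415). The call was lost in 18 of 27 alternatives, among them that without both brain arrays of low 5′ signal. Of 20 myelin genes, PMP22, a myelin protein of peripheral nerve, had a brain change of -0.88 (adjusted p = 0.0276), and MBP, the myelin basic protein, was at 36865 to 44985 and then 37828 to 41768. ENPP2, listed for myelin and choroid plexus, had a difference of 1.99 ± 0.25 with a liver rise of 2.18 ± 0.17 (second probe set 1.78, adjusted p = 0.147), and GJA1, listed for astrocytes, one of 1.57 ± 0.16 with a liver rise of 1.63 ± 0.11. The differences of FGFR3, listed for astrocytes, and AQP1, listed for choroid plexus, were 1.06 and -0.98 (limma, adjusted p = 0.00819 and 0.00293). No member of the ribosomal protein list, 59 tested, or of the bile duct list, 6 tested, was called for the difference. Without both brain arrays of low 5′ signal 4 ribosomal protein genes had the higher liver change, as they did without brain day 7 pool 3 alone, and 10 with array weights. The ribosomal protein genes had a negative brain change in 55 of 59, with a median of -0.13. Among the 8660 genes with nothing called the brain change was negative in 4356, and its median over all genes was 0.0026.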

How the data were processed

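The deposited table held 1 linear signal intensity per probe set and array (38535 probe sets). The signals were made by the authors with MAS5, per the submitters' processing notes, and scaled to a trimmed mean near 500.1 as the values show. No source used here names a genome build. Gene symbols came from a platform annotation of 2016: 27178 probe sets had 1 symbol, 177 several and 11180 none. Of those with 1, 26863 were updated through RefSeq. Left out were 96 control probe sets.

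From the deposited intensities, log2 values were computed after adding 28.4, their 25th percentile, and fitted with limma 3.58.1 in R 4.3.3 (4 group means, empirical Bayes variance with a trend, 8 residual degrees of freedom). Of all probe sets, 23456 passed the filter. The contrasts were liver change, brain change and their difference, two-sided, with Benjamini-Hochberg adjustment over those probe sets. The code was tested on simulated data.

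Named genes were those with the largest called differences, those called in both tissues, those that changed more in brain and the leading called members of each list. Other genes were chosen after their values were seen. Members and the 33 lists were chosen with earlier results of these data known. Deviations of same-numbered pools from their group means had a correlation over 0.1 in 2 of 18 pairs (range -0.33 to 0.42). At day 0 same-numbered liver and brain pools correlated at 0.069, 0.034 and 0.096, each liver pool best with its own number. At day 7 they correlated at 0.11, -0.045 and 0.060, and pools 1 and 3 did so best with their own number. A weak pairing of the tissues within an age is left undecided, and pools were not treated as pairs. Nothing in the labels says that pools came from separate hatches. Promoter sequences were not analysed here.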

Additional observations from a re-analysis of the deposited data

Results flagged for a closer look

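The age change differed between liver and brain for 913 genes, 344 with the higher and 569 with the lower liver change, by a test of the difference itself in limma. THRSP had the largest called difference in one direction (8.12) and LHFPL5 in the other (-3.23).

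A difference in opposite directions was found for CYP2D6 (-1.20) and CA5A (-1.05), where liver fell and brain rose.

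For a further group the brain change was the larger and the difference was called. Brain rose more than liver for HAL, which breaks down histidine (-1.43), STEAP3, an iron reductase (-1.38), A2M (-1.36), CA15L (-1.33), CDKN3 (-1.32), TUBB6 (-1.21), AGT (-1.02) and HBA1 (-0.55). CA15L had liver means of 5.31 and 8.26 and passed the filter through brain alone. Its difference was lost in 10 of 27 alternatives, among them that without both brain arrays of low 5′ signal. The brain call was lost in 18 of 27 alternatives for STEAP3 and in 12 of 26 for HAL. HAL and CDKN3 were under the filter in brain. Brain fell while the liver change was not called for GJD2 (1.30) and CEBPB (1.07). GJD2 had liver means of 42.5 and 47.6 and passed the filter through brain alone. The liver pools of CEBPB did not overlap between ages, with a liver change of 0.32 (adjusted p = 0.174). The second probe set of CYP2D6, CA5A, CDKN3, GJD2 and AGT and both further ones of STEAP3 were not called. With 3 pools per group, single pools were not tested for standing apart.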

How the results depend on the processing

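Of 114 named differences that were called, 73 were called under each of 27 alternatives, 41 were lost under at least 1, and 0 reversed. The share of probe sets with the higher liver change, 42.7%, ran from 40.5% to 50.3%.

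Counts depended on the estimate of the spread, and the cause was not tested. Array weights gave 313 probe sets in brain (against 73), 2419 for the difference (against 1449), 635 with a wider distance between tissues (against 386), 1263 among genes measurable in both (against 799), 21 opposite (against 2) and 72 shared (against 23). Median centring gave 36 in brain, 255 with a wider distance, 505 measurable in both, 0 opposite and 13 shared. A prior without trend gave 41, 529 and 0 for brain, genes measurable in both and opposite genes. Fitting the tissues apart gave 14 in brain, 0 opposite and 6 shared, and a variance factor per tissue gave 48 in brain and 1 opposite. Quantile normalization gave 121 in brain. A required 2-fold change, which can only lower counts, gave 42 in brain, 1410 in liver (against 3444), 951 for the difference, 450 measurable in both, 572 with a small brain change (against 1813), 0 opposite and 8 shared. An adjusted p under 0.1 gave 5 opposite and 36 shared, no filter 1 opposite, and all 24 arrays 0 opposite. Without both brain arrays of low 5′ signal there were 5 opposite and 14 shared.

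Leaving out single pools gave 31 to 76 in brain, 924 to 1525 for the difference, 259 to 403 with a wider distance, 2410 to 3996 in liver, 1304 to 1967 with a small brain change, 517 to 836 measurable in both, 0 to 4 opposite and 12 to 24 shared. The lowest counts in brain and shared came without brain day 0 pool 3, that of opposite genes also without liver day 0 pool 1 or 2, and the others without liver day 0 pool 2.

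With the replicate number as a block, the difference had 1368 calls, or 1204 with the number within age, and brain had 66, liver 3404, genes measurable in both 771 and shared genes 25. It changed no other count by over 1.5 times. In all, 7 of 18 pools correlated best with their own number. The promoter motif search was not run.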
